A study of Mus musculus with 18 samples.

Results

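T, Noto, Shh, Foxa2, Chrd and Nog are 6 genes of the notochord and the node, out of 31053 mouse genes counted in every library. Their rows were taken by symbol, with no threshold on a measured value, and their expression was followed across whole embryos, cell classes and genotypes. The kept cells held 48784 unique molecular identifiers (UMIs, each standing for 1 captured transcript) of T, 32806 of Foxa2, 18390 of Shh, 14434 of Nog, 1847 of Chrd and 1208 of Noto. In whole embryos 6 of 6 passed the filter on low counts.

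The node is a small ciliated organiser at the front of the primitive streak, and the notochord is the midline rod that extends from it under the neural tube. T (Brachyury) is a T-box transcription factor of the streak, tail bud and notochord, Noto is a homeobox factor of the node and notochord, and Foxa2 is a forkhead factor that is also active in the floor plate and in endoderm. Shh is the ligand that the notochord sends to the ventral neural tube, the somites and the gut, while Chrd (Chordin) and Nog (Noggin) are secreted proteins that bind Bmp ligands and keep them from their receptors.

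The study asked what loss of a DNA methyltransferase does to the cell types of the mouse embryo at E8.5. Dnmt1 copies methylation to newly made DNA strands, whereas Dnmt3a and Dnmt3b methylate DNA afresh. Whole embryos of the 129S4/SvJae background were dissociated singly and sequenced as 18 libraries with 10x Genomics 3′ chemistry: 7 WT, 3 of Dnmt1 KO, 4 of Dnmt3a KO and 4 of Dnmt3b KO. KO embryos are null for the named gene, and came with their wild types from crosses of heterozygous mice.

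Several properties of the libraries bear on every comparison. The libraries Dnmt3b KO 1 and Dnmt3b KO 2 shared 12249 cell barcodes, 86.5% of the barcodes of the first and 79.3% of the second, against at most 133 in any other pair, so they were summed and counted as 1 embryo and Dnmt3b KO has n = 3. WT libraries held 34421 kept cells and Dnmt1 KO libraries 7068, while those of Dnmt3a KO held 34004 and those of Dnmt3b KO 34469, each library having 36607605 to 232572748 UMIs. Here and below, cell counts of Dnmt3b KO add libraries 1 and 2, so a barcode that both share can be counted 2 times. Dnmt1 RNA was at 14.8 to 15.7 CPM (UMIs of a gene scaled to a total of 1000000 UMIs of the same cells) in Dnmt1 KO against 83.3 to 115 in WT, and Dnmt3a RNA was at 7.35 to 11.7 CPM in Dnmt3a KO against 23.1 to 35.02 in WT. Dnmt3b RNA was at 54.1 to 69.0 CPM in Dnmt3b KO against 35.5 to 87.4 in WT, so this 3′ tag does not check the Dnmt3b labels, and 2 libraries carrying that label, numbers 11 and 12, were also low in Dnmt3a (14.9 and 7.55 CPM). Y-linked genes were on in 1 of 7 WT embryos and in 3 of 3 Dnmt1 KO and 4 of 4 Dnmt3a KO embryos, and were mixed in Dnmt3b KO (on in libraries 1, 2 and 11, off in 12). Their level moves with genotype for Dnmt1 KO and Dnmt3a KO, and fits with this level as a covariate are given where a call changed.

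The 6 genes lie on different chromosomes, and all are protein-coding in the GENCODE M21 annotation of mouse GRCm38. T spans chr17:8434423-8442496 on the plus strand, Noto chr6:85423886-85428877 (plus) and Chrd chr16:20733127-20742384 (plus). Foxa2 spans chr2:148042877-148046969, Shh chr5:28456815-28467256 and Nog chr11:89300638-89302332, all on the minus strand. Shh overlaps the RNAs 9530036O11Rik and Gm26894 on the opposite strand, and Chrd overlaps Thpo on the opposite strand. Because the mutants lack enzymes that act on CpG dinucleotides, the reference sequence of 250 bases ahead of the RefSeq start (GRCm38.p6) is shown for T, Noto and Chrd, which differ widely in CpG content. All 3 genes are on the plus strand, the sequences run 5′ to 3′, and capitals mark each CG.

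T, chr17:8434173-8434422: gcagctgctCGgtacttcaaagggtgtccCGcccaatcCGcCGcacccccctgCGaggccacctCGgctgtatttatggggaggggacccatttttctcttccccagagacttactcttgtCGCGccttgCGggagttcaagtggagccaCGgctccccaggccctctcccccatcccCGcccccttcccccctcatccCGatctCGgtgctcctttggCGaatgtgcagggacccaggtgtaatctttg
Noto, chr6:85423636-85423885: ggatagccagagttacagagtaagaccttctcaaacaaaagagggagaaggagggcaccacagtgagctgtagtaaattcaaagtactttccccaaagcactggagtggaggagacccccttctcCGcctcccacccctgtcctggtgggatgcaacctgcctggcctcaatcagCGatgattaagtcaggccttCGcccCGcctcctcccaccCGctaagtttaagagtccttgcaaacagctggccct
Chrd, chr16:20732877-20733126: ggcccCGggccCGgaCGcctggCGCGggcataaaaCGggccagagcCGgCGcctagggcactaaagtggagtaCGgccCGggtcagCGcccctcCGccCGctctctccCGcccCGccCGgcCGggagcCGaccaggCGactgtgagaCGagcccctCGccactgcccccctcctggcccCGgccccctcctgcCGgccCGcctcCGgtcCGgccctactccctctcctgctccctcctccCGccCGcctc

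The window of T held 14 CG dinucleotides, that of Noto 5 and that of Chrd 28, against a median of 6 over 32851 such windows. At least as many were held by 29.4% of all windows for T, 55.6% for Noto and 7.61% for Chrd. The table matched 4 of the 6 genes. Foxa2 has 3 annotated starts with 6, 20 and 13 CG dinucleotides, while Shh and Nog were not among the matched genes. Methylation itself was not measured in these libraries.

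Cells were grouped into classes by their other genes. The 6 genes were kept out of the clustering, so their levels are a separate readout of the class. A single cluster of 110 WT cells, 27 of Dnmt1 KO, 73 of Dnmt3a KO and 85 of Dnmt3b KO carried 18 of 18 markers of the notochord and node list and was led by Samd3, Cthrc1, Slit2 and the cilium genes Fam183b, Pifo and Dynlrb2. It is called notochord and node-like. In WT every one of its 110 cells had a UMI of T, 108 had Shh, 102 Nog, 94 Foxa2, 71 Noto and 59 Chrd.

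Among the named classes with at least 10 cells in a WT embryo the 6 genes were each highest in the notochord and node-like class, and what lay behind it in the order of levels differed from gene to gene. The class mean is taken over the 4 WT embryos with at least 10 such cells, and for nearly all other classes over 7. T stood at 1024 ± 164 CPM (SD, n = 4), then at 92.8 ± 11.7 in neuromesodermal progenitor and tail bud-like cells and 71.7 ± 10.5 in presomitic mesoderm-like cells (n = 7 each). The embryo ranges of the last 2 classes overlapped, and both lay above the next class, gut endoderm-like, at 37.1 ± 16.1 CPM. Noto stood at 87.7 ± 32.5 CPM in the notochord and node-like class and at most at 0.275 ± 0.447 in any other.

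Shh was at 982 ± 419 CPM in the notochord and node-like class and at 66.9 ± 21.5 in gut endoderm-like cells, and from the third class on its ranges overlapped at 2.68 CPM or less. Foxa2 stepped down from 127 CPM (88.8 to 158 over 4 embryos) in the notochord and node-like class to 61.1 ± 10.5 in gut endoderm-like and 32.9 ± 3.69 in extraembryonic endoderm-like cells, each above the next without overlap of embryos. Chrd was at 25.4 ± 7.43 CPM, then at 5.20 ± 1.49 in gut endoderm-like cells and below 1 elsewhere. Nog behaved differently: after 270 ± 59.8 CPM in the notochord and node-like class, it was at 15.3 ± 11.3 in neural crest-like, 14.4 ± 5.51 in cardiomyocyte-like and 10.7 ± 3.75 in hindbrain and spinal cord-like cells, with overlapping ranges. A cluster within the surface ectoderm-like class held Nog at 56.2 ± 22.4 CPM (n = 7), against 8.34 ± 3.33 in the whole class. Below the minimum of 10 cells in an embryo, 8 parietal endoderm-like WT cells held 79 UMIs of Nog, at 513 CPM. Outside the named classes, an unnamed cluster of 344 WT cells led by the ventral neural tube factors Nkx2-9, Nkx6-1 and Nkx6-2 held Foxa2 at 167 CPM, above the notochord and node-like mean, and Shh at 54.7 CPM, over its summed counts.

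**Figure D1:**
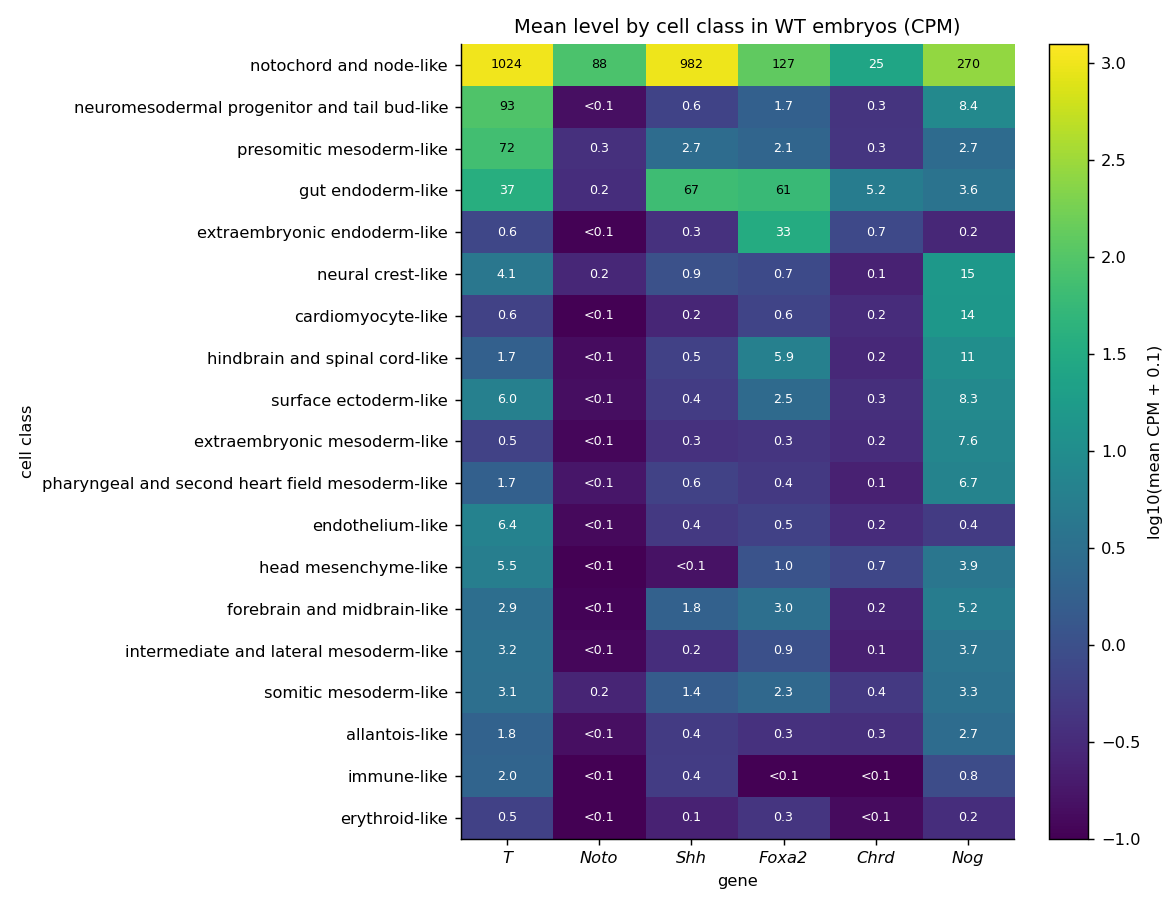
Mean level of each gene (columns, CPM) in each cell class (rows) over the WT embryos with at least 10 cells of the class; colour is log10 of the mean plus 0.1. The top row, the notochord and node-like class, is the highest for 6 of 6 genes, with T at 1024, Shh at 982 and Nog at 270 CPM.

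Because the class is rare, the share of a gene's transcripts that came from it varied. Summed over WT embryos, it held 82.0% of all UMIs of Noto. It held 38.7% of those of Shh, where gut endoderm-like cells held 44.0%, an order that rests on WT 1. Without WT 1 the shares were 46.5% and 40.4%, and in 4 of 7 embryos the notochord and node-like class held more Shh than the gut. It held 15.5% for T, of which neuromesodermal progenitor and tail bud-like cells held 47.5%. For Foxa2 43.9% came from extraembryonic endoderm-like cells, although gut endoderm-like cells held more in WT 2 (33.2% against 21.6%) and WT 5 (38.6% against 32.2%), and for Chrd 38.5% from gut endoderm-like cells. Nog was spread out, with 16.5% from neuromesodermal progenitor and tail bud-like, 16.3% from notochord and node-like and 13.9% from hindbrain and spinal cord-like cells.

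Within single cells the genes were seen together. Of 114 WT cells with a UMI of Noto, 100 also had T, 90 Foxa2, 88 Shh, 85 Nog and 53 Chrd. To set depth aside, each cell was thinned to 3000 UMIs, which leaves out 4243 cells of WT and 1018 of Dnmt1 KO, besides 6618 of Dnmt3a KO and 4508 of Dnmt3b KO. Of the thinned WT cells, 80 of 30178 held UMIs of at least 3 of the genes, and 68 of these (85.0%) were notochord and node-like, whereas without thinning it was 108 of 557 (19.4%). In thinned erythroid-like WT cells, which should lack these genes and were as deep (median 30704 UMIs before thinning against 29397 over all cells), 0.269% had a UMI of T, 0.112% of Shh, 0.0898% of Foxa2 and 0.0674% of Nog. Noto and Chrd were at 0 of 4454 such cells, which allows a share of up to 0.0674%. Over all WT cells the thinned shares were 3.90% for T, 2.82% for Foxa2, 1.31% for Shh and Nog, 0.179% for Chrd and 0.109% for Noto, above this background for each gene.

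The genes whose levels followed each member most closely over 56 WT clusters were named from Pearson's r of mean log2(CPM + 1), as a description. Clusters share embryos and libraries, so no p is given. For Noto they were Slc15a5 (r = 0.99), Nme9 (0.98) and the cilium gene Dnajb13 (0.98), each at most at 0.334 CPM in any other cluster. For Shh they were its overlapping opposite-strand RNA Gm26894 (0.98), Vtn (0.97), a marker used to name the class, and 9530036O11Rik (0.92). The same RNAs led for Chrd (9530036O11Rik 0.92, Gm26894 0.89), followed by Ttc6 (0.88), and the r of Chrd with Shh itself was 0.88. T was closest to Cpa6, Mnx1 and Erich2 (0.83 each), Foxa2 to Cpn1 (0.87), Fam20c (0.86) and 9030622O22Rik (0.85), and Nog to Enkur (0.76), Scml2 (0.74) and Cpq (0.73). Among the 6 genes the lowest r was 0.17, between Foxa2 and Nog.

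The first comparison between genotypes asks whether the whole-embryo level of the genes differed in each KO from WT. In Dnmt1 KO embryos Shh, Nog and T were lower and Foxa2, Noto and Chrd were not called, while in Dnmt3a KO and Dnmt3b KO embryos no gene was called. To be called, a gene needed an adjusted p under 0.01 together with a log2 fold change of 1 or more in size. In Dnmt1 KO 3 of 6 were called, all lower, where 14.1% of 18727 genes were called in either direction and 6.03% lower. In Dnmt3a KO 0 of 6 were called, against 0.208% of all genes, and in Dnmt3b KO 0 of 6, against 1.76%. In a whole embryo, fewer cells of a type and less RNA per cell cannot be told apart.

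Shh had 2.42, 0.865 and 1.84 CPM in Dnmt1 KO 1, 2 and 3, against 4.42, 6.03 and 11.7 CPM as the lowest, median and highest of 7 WT embryos. Every Dnmt1 KO embryo lay below every WT embryo. Here and below, how many of all genes had groups that lay apart in this way was not counted. The means were 1.71 ± 0.786 (SD, n = 3) and 7.36 ± 2.89 CPM (n = 7). Fitted by edgeR, the log2 fold change was -2.04 (SE 0.35), with an adjusted p of 0.000243. It was the largest change among the 6 genes. Gut endoderm-like cells, a main source of Shh in WT, were 1.98%, 1.34% and 1.65% of the cells of Dnmt1 KO 1, 2 and 3. In WT they were 2.46% to 7.69%. The part of this share in the fall of Shh was not tested.

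Nog had 2.23, 1.58 and 2.92 CPM in the 3 Dnmt1 KO embryos, against 3.75, 5.23 and 9.86 CPM as the lowest, median and highest in WT. Again the groups did not overlap. The means were 2.24 ± 0.668 (n = 3) and 5.83 ± 2.02 CPM (n = 7). The fitted log2 fold change was -1.29 (SE 0.23), with an adjusted p of 0.000319. With a block for replicate number and Dnmt3b KO 1 and 2 apart it was -0.99 (adjusted p 0.0182), which ends the call. In that fit WT 4, 5, 6 and 7 do not inform the difference, since no other library has their replicate numbers. Chrd, the other Bmp antagonist, had 0.450, 0.592 and 0.578 CPM in Dnmt1 KO, inside the WT range of 0.418 to 1.12, with a log2 fold change of -0.23 (95% interval -0.75 to 0.29).

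T had 8.77, 8.23 and 11.4 CPM in Dnmt1 KO, against 8.73, 20.9 and 29.6 CPM as the lowest, median and highest in WT. Dnmt1 KO 2 lay below every WT embryo, and the other 2 overlapped with WT 1 alone. The means were 9.47 ± 1.71 (n = 3) and 20.7 ± 7.45 CPM (n = 7). The fitted log2 fold change was -1.04 (SE 0.27), close to the fold threshold, with an adjusted p of 0.00626. The call was lost without WT 4 (-0.96), WT 5 (-0.96), Dnmt1 KO 1 (-0.96) or Dnmt1 KO 2 (-0.95), in libraries thinned to one depth (-0.98) and with the Y-linked covariate (-0.86, adjusted p 0.112). It was also lost with a block for replicate number and Dnmt3b KO 1 and 2 apart (-0.56, adjusted p 0.0557), where WT 4, 5, 6 and 7 again do not inform the difference.

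Foxa2 had 14.5, 11.3 and 5.21 CPM in Dnmt1 KO, against 6.98, 12.2 and 14.9 CPM in WT. Only Dnmt1 KO 3 lay below every WT embryo, and the log2 fold change was -0.10 (95% interval -0.56 to 0.36). Noto had 0.0862, 0.630 and 0.1798 CPM, against 0.0356, 0.569 and 0.765 CPM in WT. The WT embryos of Noto spanned more than the difference. Its interval, -2.12 to 1.30 around a log2 fold change of -0.41, does not exclude a large change in either direction.

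The calls of T and Foxa2 changed with the cells counted, and that of T also changed under the other settings given above. With blood, extraembryonic ectoderm, and extraembryonic and parietal endoderm classes left out, T was at a log2 fold change of -0.33 (adjusted p 0.306) and Foxa2 at -1.24 (adjusted p 1.04e-05), while Shh stayed called at -1.38 and Nog at -1.02. Extraembryonic endoderm-like cells made up 25.4%, 20.2% and 4.43% of the cells of Dnmt1 KO 1, 2 and 3, against 6.87% to 18.8% in WT, so 2 embryos lay above every WT embryo and 1 below. These cells held 86.8%, 81.4% and 43.8% of the Foxa2 UMIs of these embryos, against 21.6% to 58.6% in WT. The part of these shares in the moves of T and Foxa2 was not tested. Within that class Foxa2 did not differ between the genotypes beyond its spread (29.2 to 32.1 CPM in Dnmt1 KO, 27.9 to 37.1 in WT, log2 fold change -0.06, 95% interval -0.28 to 0.16), although 981 of the 1103 Dnmt1 KO cells lay in a cluster with 10 WT cells.

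**Figure D2:**
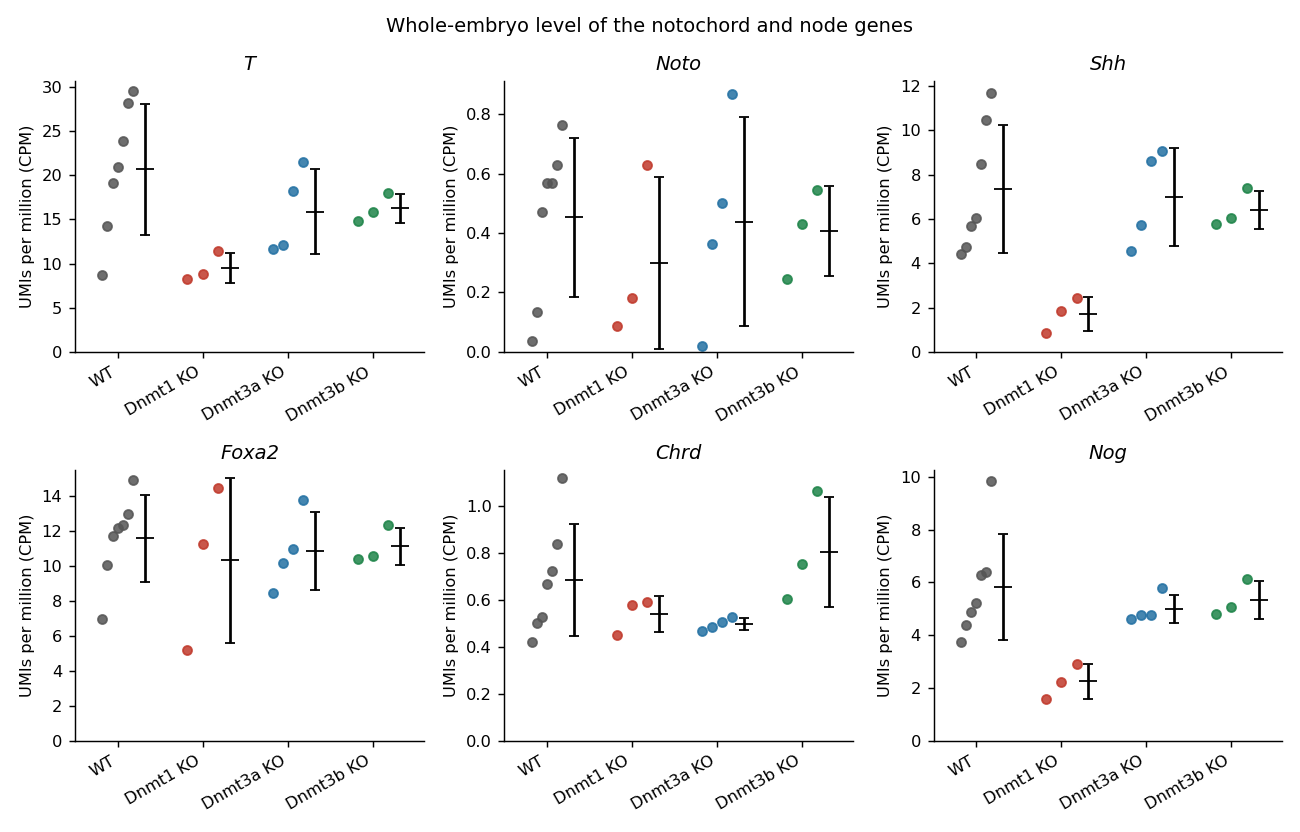
Whole-embryo level of each gene (CPM, linear axes from 0) over 7 WT embryos, 3 of Dnmt1 KO, 4 of Dnmt3a KO and 3 of Dnmt3b KO; points are embryos, with Dnmt3b KO 1 and 2 summed as 1, and black marks are the mean ± SD. The 3 Dnmt1 KO points lie below every WT point for Shh and Nog, and overlap with WT for the other 4 genes. How many of all genes lie apart in this way was not counted.

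In Dnmt3a KO and Dnmt3b KO, set against the same 7 WT embryos, Shh kept to the WT range, with 4.54, 5.71, 9.08 and 8.62 CPM in Dnmt3a KO 1, 2, 13 and 14 and 6.07, 7.40 and 5.76 CPM in Dnmt3b KO. T had 12.1, 18.2, 11.7 and 21.5 CPM in Dnmt3a KO and 14.9, 18.0 and 15.9 in Dnmt3b KO, and Nog 4.77, 4.61, 4.78 and 5.77 CPM in Dnmt3a KO and 6.13, 5.06 and 4.79 in Dnmt3b KO. All of these lay inside the WT ranges of their gene. Noto was the exception, since Dnmt3a KO 1, the library without notochord and node-like cells, was below every WT embryo at 0.0194 CPM and Dnmt3a KO 14 above every one at 0.869 CPM.

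As fitted values, the largest changes in Dnmt3a KO were in Chrd, with a log2 fold change of -0.42 (95% interval -0.89 to 0.04) and a narrow range of 0.469 to 0.525 CPM over 4 embryos, and in T, with -0.38 (-0.87 to 0.11). The other 4 genes were between -0.21 and -0.02. In Dnmt3b KO the changes ran from -0.35 for T to 0.24 for Chrd. At an unadjusted p under 0.05 the edgeR quasi-likelihood test found 0 of 6 genes in either group. Of all 18727 genes it found 1805 in Dnmt3a KO and 3299 in Dnmt3b KO. DESeq2 called 0 of the 6 genes as well. The interval of Shh, -0.65 to 0.52 in Dnmt3a KO and -0.85 to 0.45 in Dnmt3b KO, does not reach the size seen in Dnmt1 KO, whereas that of Noto (-1.49 to 1.44 and -1.71 to 1.51) spans more than a 2-fold change both ways. Leaving out either the library labelled Dnmt3b KO 11 or that labelled 12 gave 0 calls likewise. Each of these fits kept the other library low in Dnmt3a, so they do not settle the doubt about these labels.

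The KO groups were also set against each other, with Dnmt1 KO tested directly against the other 2. Shh was lower in Dnmt1 KO, with a log2 difference of -1.97 from Dnmt3a KO (SE 0.37, adjusted p 0.000632) and of -1.84 from Dnmt3b KO (SE 0.38, adjusted p 0.00227). Nog was lower too, at -1.08 (SE 0.24, adjusted p 0.00259) and -1.16 (SE 0.26, adjusted p 0.00339). These 2 of 6 genes were the ones called in each comparison, where 6.33% and 4.9% of all genes were called lower. T was at -0.66 (adjusted p 0.0842) and -0.69 (adjusted p 0.0950), so its difference from the other KO groups did not pass.

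**Figure D3:**
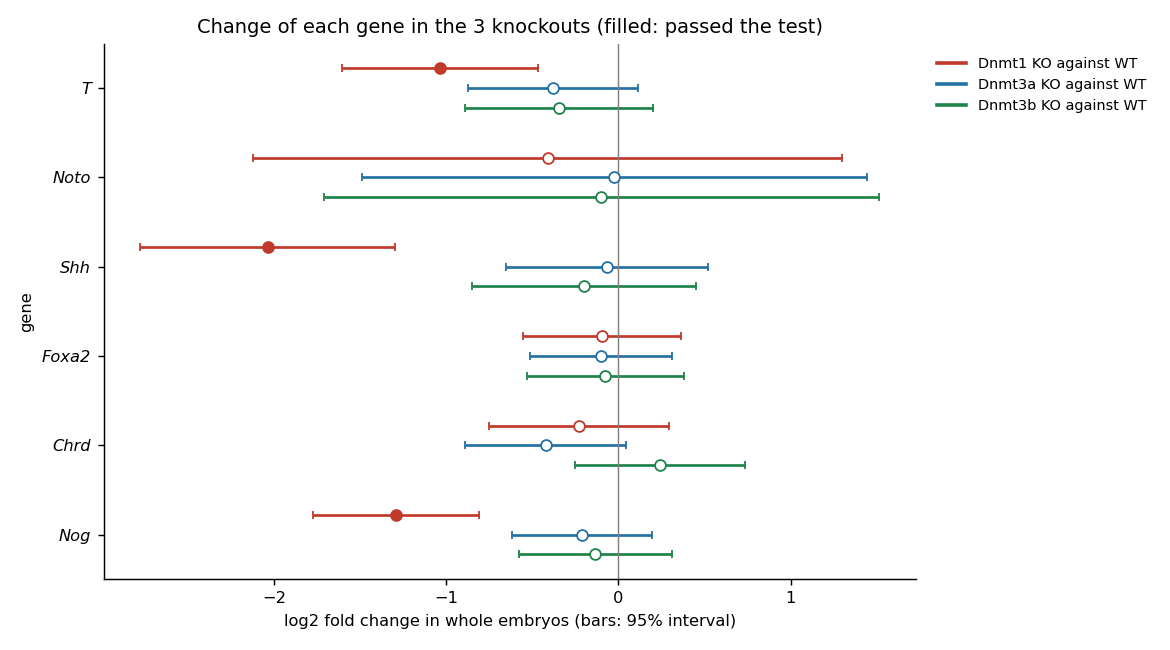
Log2 fold change of each gene in whole embryos, each KO group against WT, with the 95% interval as a bar; filled points passed the test (adjusted p under 0.01, at least 2-fold). The filled points are T (-1.04), Shh (-2.04) and Nog (-1.29) in Dnmt1 KO, and the intervals of Noto are the widest.

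The next question is whether the notochord and node-like cells themselves were fewer. They made up 0.387% ± 0.236 of the kept cells of a WT embryo (n = 7) and 0.378% ± 0.0474 of those of a Dnmt1 KO embryo (n = 3). Dnmt3a KO stood at 0.242% ± 0.205 (n = 4), and Dnmt3b KO at 0.301% ± 0.155 (n = 3). WT 1 had 2 such cells and Dnmt3a KO 1 had 0, which allows up to 3 cells, while the other libraries had 5 to 40. In exact two-sided permutation tests the log2 difference from WT was 0.48 for Dnmt1 KO, -1.33 for Dnmt3a KO and -0.08 for Dnmt3b KO, with an adjusted p of 0.817 in each. The smallest p these tests can give is 0.0167 for 3 embryos against 7 and 0.00606 for 4 against 7. Without WT 1 the Dnmt1 KO difference was -0.06, and without Dnmt3a KO 1 the Dnmt3a KO difference was 0.06, so both rest on a single embryo.

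Within the class, the fitted log2 fold changes of Dnmt1 KO were below 0 for 6 of 6 genes, near 0 for Noto, and no gene was called. By edgeR 4 of them (T, Shh, Foxa2 and Nog) had an unadjusted p under 0.05. How many of all 6458 genes tested in the class were below 0, or under this p, was not counted. In whole Dnmt1 KO embryos 8611 of 18727 genes were under it. Only 5, 11 and 11 such cells were kept from the 3 Dnmt1 KO embryos, too few for the minimum of 25 cells per embryo set for class fits, so the fit at 5 cells is an alternative chosen after seeing the data. Shh had 631, 303 and 52.9 CPM in Dnmt1 KO 1, 2 and 3, against 422 to 1386 CPM in the 6 WT embryos with at least 5 cells, so 2 of 3 lay below all of these. The log2 fold change was -1.45 (SE 0.45, adjusted p 0.0480). Nog had 188, 129 and 87.2 CPM against 197 to 519 in WT, with no overlap, and was fitted at -1.07 on the log2 scale (SE 0.27, adjusted p 0.0157).

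T had 412, 1030 and 318 CPM in these Dnmt1 KO cells, against 883 to 1334 in WT, and Foxa2 60.05, 129 and 31.1 CPM against 88.8 to 215. Dnmt1 KO 2 overlapped with WT for both genes and the other 2 embryos lay below. Their log2 fold changes were -0.79 (adjusted p 0.0586) and -0.89 (adjusted p 0.10003). Noto had 24.6, 265 and 34.2 CPM against 41.5 to 259 in WT, a span of over 10-fold among the KO embryos, with a log2 fold change of -0.07 (95% interval -1.18 to 1.04). Chrd had 5.46, 38.7 and 9.34 CPM against 17.8 to 39.3 in WT, so 2 of 3 lay below, with a log2 fold change of -0.65 (95% interval -1.66 to 0.36) from 2, 12 and 3 UMIs. In Dnmt1 KO 3 the cells of the class were shallow, with a median of 4401 UMIs against 21455 and 65609 in the other 2 embryos, and its part in these values was not tested. The count of 0 of 6 called compares with 3.61% of 6458 genes tested in this class.

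In Dnmt3a KO and Dnmt3b KO 0 of 6 genes were called in the class, against 0.031% and 0.17% of genes. T lay below the WT embryos with at least 5 cells (883 to 1334 CPM) in Dnmt3b KO 11 (872 CPM) and Dnmt3b KO 12 (828 CPM), and Chrd below their lowest value (17.8 CPM) in Dnmt3b KO 11 (13.6 CPM). Above the WT values lay Shh in Dnmt3a KO 13 (1428 against at most 1386 CPM) and, narrowly, Foxa2 in Dnmt3a KO 2 (215.3 against at most 214.9 CPM). The libraries that share barcodes had T at 641 and 1404 CPM and Chrd at 23.8 and 42.8 CPM. The fitted log2 fold changes lay between -0.15 (Nog) and 0.54 (Noto) in Dnmt3a KO and between -0.30 (Shh) and 0.13 (Foxa2) in Dnmt3b KO. The 95% interval for Shh was -0.77 to 0.92 in the first and -1.17 to 0.56 in the second.

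**Figure D4:**
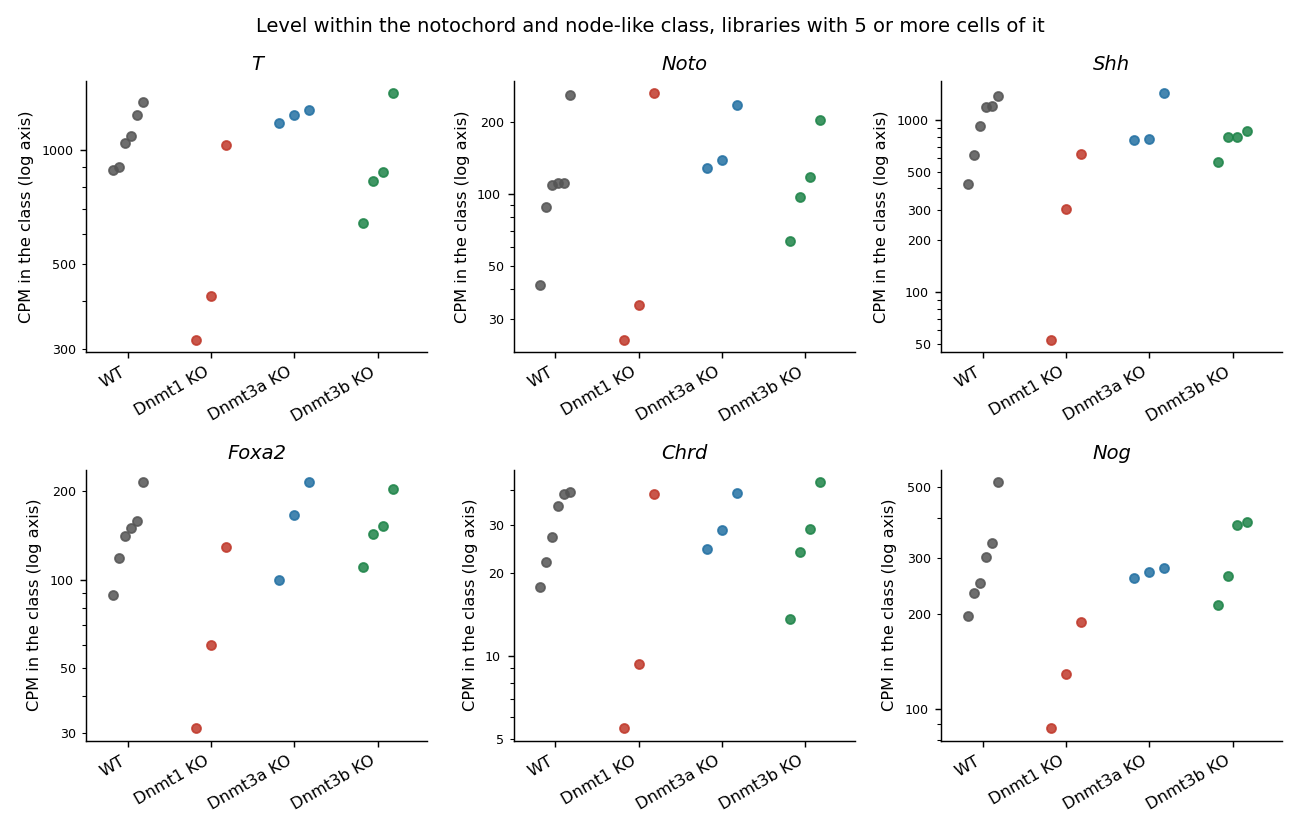
Level of each gene within the notochord and node-like class (CPM, log axes) in libraries with at least 5 cells of the class: 6 of WT, 3 of Dnmt1 KO, 3 of Dnmt3a KO and 4 of Dnmt3b KO, with the 2 that share barcodes drawn apart. Dnmt1 KO points lie below the WT points for Nog and spread widely for Noto, from 24.6 to 265 CPM.

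Counting cells again put Shh and Nog first in Dnmt1 KO, without a pass, but the order of the other genes changed. The mean log2 differences of the thinned shares were -2.26 for Shh, -1.50 for Nog and -1.36 for Chrd. They were -0.87 for T, -0.29 for Foxa2 and 0.42 for Noto. The thinned share of cells with a UMI was 0.241% ± 0.0812 for Shh in Dnmt1 KO (n = 3) against 1.32% ± 0.490 in WT (n = 7), with no overlap, and 0.506% ± 0.233 against 1.45% ± 0.415 for Nog. Both had an exact two-sided permutation p of 0.0167, the smallest possible here, and an adjusted p of 0.15 over 18 tests, of which none passed 0.05. By themselves, 2 tests at this smallest p cannot pass 0.05 after adjustment over 18 tests. The missing pass therefore does not tell whether these shares differ. Unthinned, the shares were 0.865% against 3.89% for Shh and 5.38% against 9.25% for Nog. Without thinning the sign of the log2 difference turned for Chrd (0.25, 2.20% against 1.91%), Noto (-0.34, 0.257% against 0.404%) and Foxa2 (0.10, 16.2% against 13.5%). The lowest thinned Dnmt1 KO share of Chrd was 0, so the thinned difference of Chrd leans on the 0.5 cells added. Cells with at least 3 of the genes made up 0.108% ± 0.0348 of thinned Dnmt1 KO cells against 0.298% ± 0.164 in WT (exact permutation, adjusted p 0.3), and 7 of these 7 Dnmt1 KO cells were notochord and node-like.

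Outside the notochord, the genes were tested in each class with at least 25 cells per embryo. In Dnmt1 KO 4 of 23 pairs of a gene and a class were called, against 8.27% of all such pairs, in Dnmt3a KO 0 of 53, against 0.136%, and in Dnmt3b KO 0 of 51, against 0.753%. At an unadjusted p under 0.05 there were 10, 6 and 1. The share of all such pairs under this p is not given, so these counts are not read further. In whole Dnmt1 KO embryos 8611 of 18727 genes were under it. The pairs not tested, 19, 49 and 45, had too few counts. DESeq2 called 7 of the 23 pairs in Dnmt1 KO, and its share over all pairs is not given.

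In gut endoderm-like cells Shh was called lower in Dnmt1 KO, and the other genes tested in the class were not called. Shh had 8.38, 6.61 and 26.2 CPM in the 3 Dnmt1 KO embryos, against 34.4, 68.6 and 95.3 CPM as the lowest, median and highest in WT, with no overlap. The log2 fold change was -2.13 (SE 0.43, adjusted p 0.00110), and -1.86 (adjusted p 0.0251) with the Y-linked covariate, which ends the call. Foxa2 had 61.1, 59.5 and 48.8 CPM against 43.6 to 75.2 in WT (log2 fold change 0.02, 95% interval -0.28 to 0.31), T was at 0.04 and Chrd at -0.08. Of the 112 Dnmt1 KO gut cells, 91 lay in 1 of the 4 clusters of this class, led by Nepn, Gpx2 and Trh. In that cluster Shh was at 7.10 CPM in Dnmt1 KO and 90.2 in WT, and T at 33.6 and 69.9, over summed counts.

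In presomitic mesoderm-like cells T had 40.2, 45.9 and 32.0 CPM in Dnmt1 KO, against 60.5 to 89.4 in WT. The groups did not overlap, and the change of -0.85 on the log2 scale (SE 0.16, adjusted p 0.000660) stayed short of the fold threshold. Nog was called lower, with 2, 2 and 4 UMIs in the 3 embryos, at -2.63 on the log2 scale (SE 0.70, adjusted p 0.00893). This call was lost in 10 of 15 fits that left out 1 library: without WT 3, 4, 5 or 6, without Dnmt3a KO 1, 2, 13 or 14, and without Dnmt3b KO 2 or 11 (over the 10, -2.69 to -2.26 with adjusted p 0.0107 to 0.0155), and with the Y-linked covariate (-1.62, adjusted p 0.234). Shh had 133 UMIs in 1071 WT cells and 0 in 360 Dnmt1 KO cells, at least 15.2-fold lower over the groups when 0 is set to 3 UMIs, and at least 9.31-fold without WT 4, which held 72 of the 133. WT 1, 2, 3 and 7 had 1 UMI or none, and the fit did not call Shh in this class (adjusted p 0.0433). Different clusters hold this class: 356 of the 360 Dnmt1 KO cells lay in a cluster led by Mesp1 that held 0 WT cells.

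In Dnmt3a KO and Dnmt3b KO none of these pairs was called. Shh in gut endoderm-like cells was at 0.15 on the log2 scale in Dnmt3a KO (95% interval -0.41 to 0.72) and at -0.35 in Dnmt3b KO (-0.98 to 0.28). T in presomitic mesoderm-like cells was at 0.09 (-0.20 to 0.38) and 0.07 (-0.24 to 0.38). In the same cells Nog was at -1.05 (-2.17 to 0.064) and -0.83 (-1.93 to 0.27), and Shh at -2.08 (-4.68 to 0.53) and -2.35 (-5.03 to 0.32), intervals that reach large decreases. Of the 894 Dnmt3b KO cells of this class, 255 lay in a cluster that held no cells of the other groups and was led by Gm21761, Gm13119 and BC080695.

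T was higher in endothelium-like cells of Dnmt1 KO embryos, at 10.5, 20.9 and 17.3 CPM against 3.34, 5.95 and 11.005 CPM as the lowest, median and highest in WT. Dnmt1 KO 1 overlapped with WT 3 and the other 2 lay above. The log2 fold change was 1.29 (SE 0.31, adjusted p 0.00398) from 16, 20 and 32 UMIs. The cells were spread differently over the clusters: 217 and 57 of the 278 Dnmt1 KO cells were in 2 of the 4 clusters of the class, where WT had 1191 and 337. In the other 2 clusters WT had 516 and 179 cells, and Dnmt1 KO 3 and 1. Within the 2 shared clusters T was at 8.10 CPM in Dnmt1 KO against 5.10 in WT, and at 19.3 against 13.4, over summed counts. Nog was called higher in erythroid-like cells, at 3.04 on the log2 scale (SE 0.71, adjusted p 0.00231), from 3, 18 and 3 UMIs at 0.910, 3.25 and 0.928 CPM against 0 to 0.720 in WT. These are levels near single UMIs, and 338 of the 377 Dnmt1 KO cells of that class lay in a cluster with 17 WT cells.

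**Figure D5:**
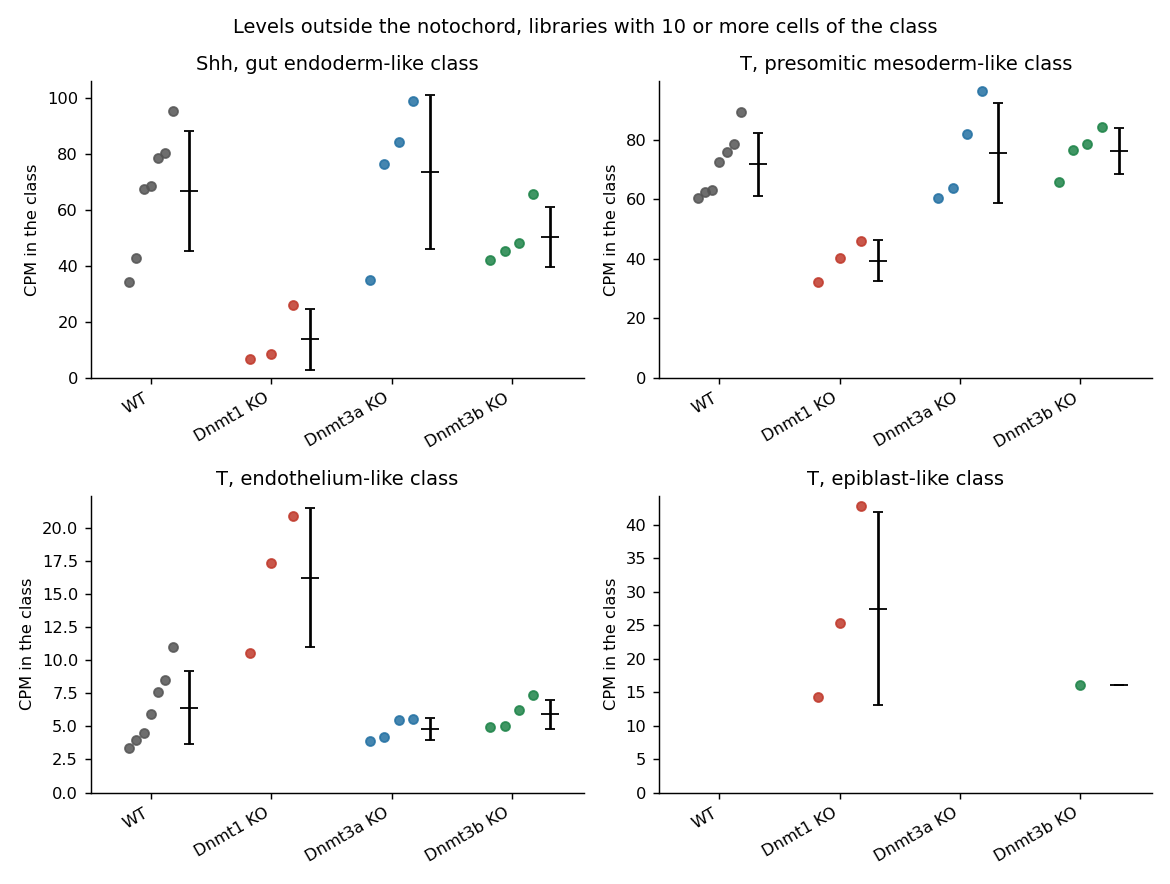
Levels (CPM, linear axes from 0) of Shh in gut endoderm-like cells and of T in presomitic mesoderm-like, endothelium-like and epiblast-like cells, in libraries with at least 10 cells of the class; points are libraries and black marks the mean ± SD. Dnmt1 KO lies below WT for Shh (6.61 to 26.2 against 34.4 to 95.3 CPM) and for T in presomitic cells, and no WT embryo had 10 epiblast-like cells.

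Where T transcripts lay differed between the genotypes. Neuromesodermal progenitor and tail bud-like cells, the main source of T in WT, were 9.40% ± 2.97 of WT cells (n = 7) and 0.250% ± 0.166 of Dnmt1 KO cells (n = 3), 2964 and 16 cells. In Dnmt1 KO 1, 2 and 3, 44.9%, 40.9% and 25.4% of T UMIs came from epiblast-like cells, 20.9%, 18.1% and 37.7% from presomitic mesoderm-like cells and 16.5%, 29.4% and 11.5% from notochord and node-like cells. Epiblast-like cells led in Dnmt1 KO 1 and 2 and presomitic mesoderm-like cells in Dnmt1 KO 3. Epiblast-like cells held T at 25.3, 42.8 and 14.3 CPM in the 3 Dnmt1 KO embryos over 815 cells, and WT had 17 such cells in all, so no test was made. Of the Shh UMIs, 91.3% in Dnmt1 KO 1 and 82.5% in Dnmt1 KO 2 came from notochord and node-like cells, but 11.9% in Dnmt1 KO 3. There 46.2% (66 of 143 UMIs) came from extraembryonic mesoderm-like cells, which held at most 0.383% of Shh UMIs in a WT embryo (3 of 784 in WT 7), and 34.97% from gut endoderm-like cells. The unnamed cluster with the ventral neural tube genes held 0 Dnmt1 KO cells.

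The genes around these 6 in their pathways were read from lists, with counts over whole embryos in Dnmt1 KO, where the median log2 fold change was 0.01 over all genes and -0.72 over the 6. The shares called are to be read against the 14.1% of all genes called, 6.03% lower. In Dnmt3a KO and Dnmt3b KO 0 genes of every list were called. Of 17 Hedgehog pathway genes 0 rose and 3 fell (17.6% called, median -0.52): Gas1 (-1.83) and Boc (-1.02), co-receptors for Shh, and Scube1 (-1.33), of a family of secreted proteins that help release it. Of 10 ventral neural tube genes, which respond to Shh or mark the floor plate, 0 rose and 8 fell (median -2.89), with Nkx6-1 at -4.25 (SE 0.30), Nkx2-9 at -2.76 and Nkx6-2 at -3.03. The neural classes of that region were nearly missing too, with 6 hindbrain and spinal cord-like cells in Dnmt1 KO, and their part in these values was not tested.

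Of 25 Bmp pathway genes 0 rose and 3 fell (median -0.16), and these 12% are near the share of all genes: Grem1 (-2.54), Fst (-1.43) and Fstl1 (-1.18), which are secreted antagonists or follistatin-related proteins. No ligand, receptor, Smad or Id gene of this list was called. Fst was among the leading genes of clusters of somitic mesoderm-like, head mesenchyme-like and hindbrain and spinal cord-like cells. Each of these classes made up at most 0.275% of the cells of a Dnmt1 KO embryo and at least 0.695% in WT. Their part in the values of the Bmp list was not tested. Of 17 streak and tail bud genes 1 rose and 9 fell (median -1.26): the T-box factor Eomes rose (3.02), and Hes7 (-2.36), Fgf17 (-2.53) and Fgf8 (-2.06) were among those that fell. Extraembryonic ectoderm-like cells were 13.8% ± 14.9 of Dnmt1 KO cells (1149 cells, n = 3) and 0.264% ± 0.675 of WT cells (131 cells, n = 7), and neuromesodermal progenitor and tail bud-like cells were nearly missing in Dnmt1 KO, as given above. The part of these classes in the list's values was not tested.

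Of 15 node cilia genes 5 rose and 1 fell (median 0.60). The dynein genes Dynlrb2 (2.17) and Dnah5 (1.73) and the regulator Foxj1 (1.34) were higher, and Ccdc40 (-1.68) was lower. Of 9 left-right signalling genes tested out of 10, 3 rose and 0 fell (median -0.11): Gdf3 (3.26), Cfc1 (1.92) and Cer1 (1.41). Epiblast-like cells numbered 815 in Dnmt1 KO and 17 in WT, and the 2 clusters with Cfc1 among their leading genes, 1 of extraembryonic and 1 of pharyngeal and second heart field mesoderm-like cells, held 770 and 374 Dnmt1 KO cells against 17 and 2 in WT. Their part in these values was not tested. Of 13 endoderm and forkhead genes 2 rose and 4 fell (median 0.49), with Epcam (1.09) and Trh (2.001) higher and Foxa1 (-1.94) and Pyy (-3.90) lower. Foxa1 thus fell in the whole embryo where its relative Foxa2 was not called. Without blood and extraembryonic ectoderm and endoderm classes Foxa2 was called lower too, at -1.24 (adjusted p 1.04e-05). Foxa1 and Foxa2 were not tested against each other. Gut endoderm-like clusters with both Foxa1 and Pyy among their leading genes held 17 and 0 Dnmt1 KO cells, against 717 and 214 in WT. Their part in these values was not tested.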

How the data were processed

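Single-cell RNA-seq in 18 libraries of singly dissociated embryos (7 WT, 3 Dnmt1 KO, 4 Dnmt3a KO, 4 Dnmt3b KO) was grouped by the genotype in the labels. The authors deposited UMI counts per gene and barcode from Cell Ranger, version 3.1.0 in 17 file headers and 5.0.0 in 1, and 4 libraries (Dnmt3b KO 11, WT 1, and 1 and 13 of Dnmt3a KO) used a joint reference of human plus mouse, of which mouse genes were taken. The gene list, the pathway lists and the tests were chosen with earlier results of these data known.

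Barcodes with at least 1500 mouse UMIs, at most 30% mitochondrial and at most 35% ribosomal UMIs were kept (128881 of 162336 barcodes reached 1500 UMIs). Doublets were removed by a reimplementation of the Scrublet score at 0.8% per 1000 cells (7924 removed), which left 109962 cells, 1366 to 12716 per library, with a median of 3757.5 to 59698 UMIs. Up to 2000 cells per library (34830 in all) were clustered without the 6 genes, on 2500 variable genes, 50 principal components and 30 neighbours, by Leiden at resolution 3 (igraph 0.11.9, leidenalg 0.10.2). Of 66 clusters 60 were named into 22 classes by marker score, all names being rebuilt here. The other cells took the class of their nearest reference cells.

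Counts were summed per embryo, and per embryo and class with at least 25 cells, and tested over 17 embryos (Dnmt3b KO 1 and 2, which share barcodes, as 1) with the edgeR 4.0.16 quasi-likelihood test (R 4.3.3, TMM scaling, filterByExpr, no covariate), with Benjamini-Hochberg adjustment over all genes. The SE was taken from the fold change and its F statistic, and the 95% interval from the SE and the degrees of freedom of that test. The labels describe single embryos, so other libraries were taken as separate embryos. Shares were compared by two-sided exact permutation tests on log2 shares with 0.5 cells added. The fit was first tested on simulated data. The genes named were the 6 members, at most 4 called genes per list by adjusted p, and the 3 genes most like each member among those reaching 5 CPM in a cluster, of which 1 list gene is not reported here. Intervals and limits from counts of 0 (3 counts) cover counting error only. The alternatives were DESeq2 1.42.0, RLE scaling, no count filter, other cell minimums and depths, fewer classes, covariates, a replicate block, both Dnmt3b KO libraries apart, and each library left out. Added after seeing the data were the fit at 5 cells per embryo, the Y-linked covariate in classes, unthinned shares, the list counts under each alternative, shares of UMIs by embryo, and a fit without WT 1 and Dnmt3a KO 1. Figures were drawn with matplotlib 3.10.9.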

Additional observations from a re-analysis of the deposited data

Results flagged for a closer look

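Of 46 groups of values examined, 3 held an embryo far from the others of its group, and chance alone marks about 1 group in 20. Whole-embryo Nog was at 9.86 CPM in WT 5, where the other 6 WT embryos had 3.75 to 6.39 CPM. Whole-embryo Nog was at 5.77 CPM in Dnmt3a KO 14, where the other 3 Dnmt3a KO embryos had 4.61 to 4.78 CPM. Within the notochord and node-like class, Noto was at 259 CPM in the 8 cells of WT 7, where the other WT embryos with at least 5 such cells had 41.5 to 112 CPM.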

How the results depend on the processing

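The notochord and node-like class rests on 2 to 40 cells per embryo where it was found at all. Libraries with the same replicate number in 2 groups had correlations of deviations of -0.25 to 0.20. Pairs with different numbers were not set beside these, so this check does not decide whether the embryos were paired. With the replicate block, fitted with Dnmt3b KO 1 and 2 apart, 1 of 6 genes was called in Dnmt1 KO, Shh, with T at -0.56 (adjusted p 0.0557) and Nog at -0.99 (adjusted p 0.0182). WT 4, 5, 6 and 7, Dnmt3a KO 13 and 14 and Dnmt3b KO 11 and 12 have replicate numbers that no other library has. Each is taken up by its own block term, so Dnmt1 KO was in effect compared with WT 1, 2 and 3 alone. Counting those 2 libraries apart without the block left 3 called. In the fit with both changes the sign turned for Noto (0.57), Foxa2 (0.0050) and Chrd (0.020) in Dnmt1 KO, for T (0.28), Noto (0.29) and Nog (0.17) in Dnmt3a KO, and for T (0.16), Noto (0.79), Foxa2 (0.087) and Nog (0.44) in Dnmt3b KO.

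The Y-linked covariate turned Noto (0.34, 0.72 and 0.40) and Foxa2 (0.15, 0.14 and 0.089) in Dnmt1 KO, Dnmt3a KO and Dnmt3b KO, left T in Dnmt1 KO at -0.86, Shh in gut endoderm-like cells at -1.86 and Nog in presomitic mesoderm-like cells at -1.62 without a call, and gave 1 list gene called in Dnmt3b KO, as did DESeq2 (1). The reference covariate turned Noto in Dnmt3a KO (0.34) and Dnmt3b KO (0.51), and all barcodes with 1500 UMIs turned Noto (0.036 and 0.085) in the same groups and Shh in Dnmt3a KO (0.16). Thinned libraries turned Noto in Dnmt3a KO (0.092) and Foxa2 in Dnmt3b KO (0.048), with T in Dnmt1 KO at -0.98. Leaving out WT 1 and Dnmt3a KO 1 turned Noto (0.17) and Shh (0.066) in Dnmt3a KO. Without the blood, extraembryonic ectoderm and endoderm classes Noto in Dnmt1 KO was at 0.65, T at -0.33 and Foxa2 at -1.24. At 50 cells per embryo 2 pairs of a gene and a class were called in Dnmt1 KO, and with DESeq2 7, without the shares over all pairs. With no cell added and embryos without such cells left out, the Dnmt3a KO share of notochord and node-like cells differed by 0.12, and leaving out Dnmt3a KO 1 alone gave 0.058. The cause of these moves was not tested.

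Leaving out each library in turn gave 2 to 3 genes called in Dnmt1 KO, 3 to 5 pairs of a gene and a class, and 26 to 43 list genes. The log2 difference in the notochord and node-like share ran from -0.060 to 0.67 in Dnmt1 KO, -2.01 to 0.058 in Dnmt3a KO and -0.62 to 0.11 in Dnmt3b KO, and that in cells with at least 3 of the genes from -1.31 to -0.84, -0.95 to 0.072 and -0.46 to 0.019. The Dnmt1 KO fold changes ran from -2.35 to -1.72 for Shh, -1.54 to -1.10 for Nog, -1.21 to -0.95 for T, -1.67 to 0.035 for Noto and -0.39 to 0.21 for Foxa2. Noto ran from -0.51 to 0.37 in Dnmt3a KO and -0.42 to 0.037 in Dnmt3b KO, Shh from -0.25 to 0.087 in Dnmt3a KO, and Foxa2 from -0.15 to 0.011 and Nog from -0.19 to 0.026 in Dnmt3b KO. In classes, T in endothelium-like cells ran from 1.19 to 1.49, Nog in erythroid-like from 2.90 to 3.20, Shh in gut endoderm-like from -2.24 to -2.01 and Nog in presomitic mesoderm-like from -2.82 to -2.26.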
